A study of Mus musculus with 4 samples.

Results

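The 55 mouse genes described here encode zinc finger transcription factors that carry a BTB domain (36 Zbtb genes) or a SCAN domain (10 Zscan and 9 Zkscan genes, the latter usually with an added KRAB domain). They were taken from the array's own gene symbols, which had to be Zbtb, Zscan or Zkscan followed by a number, out of 19718 genes with a single symbol, and where a gene had several probes the probe with the highest mean intensity over the 4 arrays stood for it. Genes of these families that the array lists under another name were therefore not members and are described apart. Zbtb7c, whose suffix the naming rule did not cover, was also left out (21.8 and 16.9 in control, not detected, and 24.4 and 27.3 after cordycepin, adjusted p = 0.72). The cells were MA-10, a clonal mouse Leydig tumor cell line (Leydig cells are the steroid-producing cells of the testis), treated for 3 h with 100 μmol/L cordycepin (2 arrays) or with vehicle (2 control arrays). Cordycepin is an adenosine analogue without the 3′ hydroxyl group that the next nucleotide of an RNA chain would be joined to. The labels name PBS as the vehicle while the study's methods name DMSO, a label on RNA extraction gives the cordycepin concentration as 20 mg/mL instead, no further allele or agent distinguished the groups, and nothing said whether the duplicates came from separate cultures, so every p-value below measures the spread between arrays only. All values come from 1 cell line.

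The BTB domain is a protein interaction surface through which these factors pair with themselves or with relatives and recruit corepressors such as NCOR1, while their zinc fingers select the DNA site. The SCAN domain is another pairing surface, found in vertebrates next to zinc fingers, and the KRAB domain recruits the corepressor TRIM28 (KAP1) in many of the proteins that have it. BTB zinc finger factors are best known for lineage decisions of lymphocytes, for the maintenance of male germline stem cells and for binding methylated DNA. Most SCAN factors have few assigned functions.

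Total RNA of the bulk cultures was reverse-transcribed from oligo-dT primers, according to the labels. In such bulk RNA, less transcript per cell and fewer cells with the transcript cannot be told apart. Each array gave a normalized intensity (a brightness without unit, scaled by the authors) and a detection p-value for each of 26423 probes. An array is said to detect a gene where that p was under 0.05, and the lowest intensity so detected lay between 19.5 and 25.2 on the 4 arrays. Between 12193 and 13415 probes were detected per array. The arrays of a group correlated at 0.992 (control) and 0.993 (cordycepin), but the second control array was dimmer than the first by 0.50 on the log2 scale at the median probe, against 0.03 for the cordycepin pair. The line's identity was checked on 6 Leydig cell genes, of which 4 were detected on every array, among them Hsd3b1 and Nr5a1, while Cyp11a1 was listed at 0 on every array. Nr5a1 was itself lower (7745 and 4964 in control, 3094 and 2578 after cordycepin, adjusted p = 0.039), and Star had a log2 ratio of −1.08 (adjusted p = 0.054). Of 15 tested markers of other testis cells, 7 were also detected on every array. Among them were Kit, listed for germ cells (3000 and 2123 in control), and Dhh, listed for Sertoli cells (717 and 536 in control). Detection of the Leydig cell genes therefore did not by itself set the line apart from other testis cells. Of the same 15 markers 1 was lower, the Sertoli cell factor Sox9 (98.5 and 69.2 in control, 14.4 and 14.5 after cordycepin, not detected there). The summed intensity of those markers ran from 3545 to 5040 in control and from 2979 to 3220 after cordycepin, and their part in the results below was not tested.

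In 42 of the 55 genes at least 1 group had the gene detected on each of its arrays (called detected from here on), 32 of them on all 4 arrays. Zscan20 could not be tested because it had intensities of 0. Of the 54 tested genes, 28 were lower after cordycepin and 0 were higher (limma, Benjamini-Hochberg adjusted p under 0.05 over 24319 probes), where 14.7% of all 18474 genes tested were lower and 0.942% were higher. No member was higher at an unadjusted p under 0.05 in this fit either, where 400 of all 18474 genes tested were. On centred arrays 2 members were higher at an unadjusted limma p under 0.05. Quantile normalization of the raw intensities called 1 higher after adjustment, Zscan10. The study's methods name a t-test at P under 0.05 and mention no adjustment. With the Benjamini-Hochberg adjustment added here, that t-test gave 0 lower and 0 higher, over all probes as well as over the members. At an unadjusted p under 0.05 it put 26 members lower and 0 higher, and the share of all genes at that p is not given here. The median log2 ratio (cordycepin over control) of the members was −1.21, against −0.13 over all genes tested. Of the 42 detected members 27 were lower, where the same detection left 22.1% of all genes lower. This filter also lets in genes detected in control alone, which favours genes that fall. Of the 27 lower members 6 were detected on neither cordycepin array, as were 420 of the 2498 lower genes among all detected genes. Of the 32 members detected on all 4 arrays 20 were lower, a share that was not computed for all genes. On 42 of the 54 genes both cordycepin arrays lay below both control arrays, as they did on 35.5% of all genes tested, and on 1 member, the undetected Zbtb16, both lay above, as on 8.63% of all genes. When each array was centred on its own median, 32 members were lower and 0 higher, where 19.8% of all genes were lower and 19.9% higher, and the members' median log2 ratio was −0.87 where that of all genes was 0.21. Every fitted ratio had the same standard error of 0.41, because limma estimated a single spread for all probes. The p-values of this fit therefore rest on that pooled spread and not on the gap between a gene's own duplicates. On centred arrays the standard errors ran from 0.085 to 4.58. There the limma adjusted p of Zbtb43, for example, was 0.0012, against 4.5e-16 in the main fit.

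**Figure D1:**
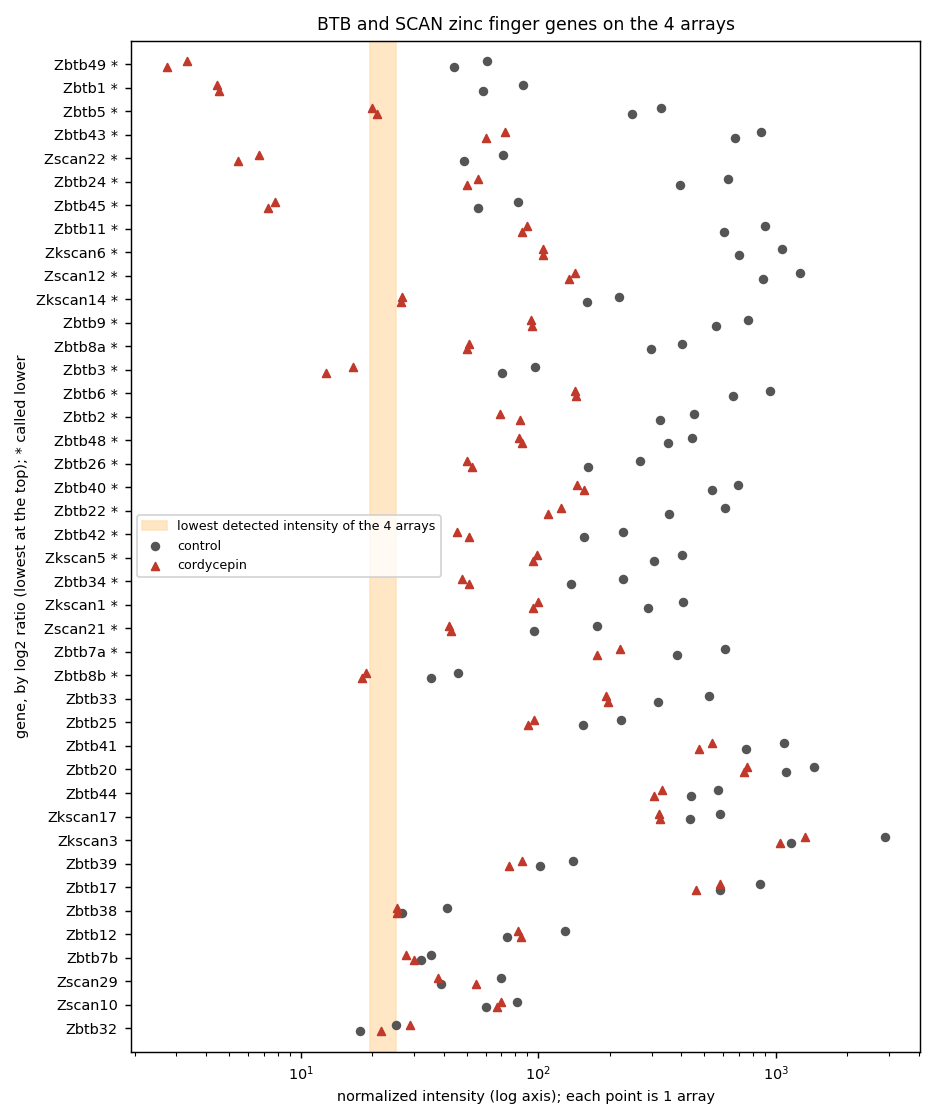
Normalized intensity (log axis) of the 42 detected members, 1 point per array, ordered by log2 ratio with the lowest at the top. The 27 genes marked with an asterisk were called lower, and in each of them both cordycepin arrays (red triangles) lie to the left of both control arrays (grey circles); the shaded band spans the lowest detected intensities, 19.5 to 25.2.

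Among the members detected on every array, the largest fall was that of Zbtb43, which in mouse is known for a role in the DNA methylation of male germ cell precursors. Zbtb43 read 869 and 676 in control and 72.2 and 60.0 after cordycepin, an 11.6-fold fall (log2 ratio −3.54, adjusted p = 4.5e-16). Zbtb24, whose human counterpart is mutated in an immunodeficiency with unstable centromeres and which maintains DNA methylation there, read 627 and 396 in control and 55.6 and 50.0 after cordycepin. That is a 9.46-fold fall, and the gap between the groups was far wider than the gap between the control arrays. Zbtb11 read 902 and 607 in control against 90.0 and 85.5 after cordycepin, an 8.44-fold fall. Zkscan6 fell 8.24-fold, from 1057 and 701 to 104 and 105. These 4 were the only members detected on all arrays whose ratio passed 8-fold. They are among the 15 largest falls named here, and groups that did not overlap were a condition for that naming.

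Zbtb5, which represses the cell cycle inhibitor gene p21 in human cells, started at 327 and 248 and read 20.0 and 20.9 after cordycepin. Only 1 of those cordycepin readings was detected, so the fitted 13.9-fold fall ends at the edge of what the arrays could read. A further 6 genes were detected on both control arrays and on neither cordycepin array, and for these the fall is a lower bound, the control mean over the lowest detected intensity of each cordycepin array.

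Zbtb49, which activates p21 in human cells, read 60.7 and 44.4 in control and 3.33 and 2.73 after cordycepin, a fall of at least 2.30-fold. Zbtb1, required in mouse for lymphocyte development, read 85.9 and 58.6 in control and 4.44 and 4.55 after cordycepin, at least 3.14-fold lower. The fitted log2 ratios of this pair, −4.11 and −3.98, are the most negative of all members, but they rest on cordycepin values that cannot be told from background. Zscan22 (71.0 and 48.8 in control, 6.67 and 5.45 after cordycepin) was at least 2.60-fold lower. Zbtb45, involved in glial differentiation in mouse, went from 82.4 and 55.9 to 7.78 and 7.27, at least 3.00-fold lower. Zbtb3 went from 97.3 and 70.1 to 16.7 and 12.7, at least 3.65-fold lower. Detection in control and not after cordycepin was the condition for grouping these genes, so it is not a separate result.

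Zbtb8b, the dimmest of these 6, was at 45.8 and 35.5 in control and at 18.9 and 18.2 after cordycepin (at least 1.78-fold lower, adjusted p = 0.043). Its call was lost when either cordycepin array was left out or with no filter on low values. Zkscan4 was called lower from readings of 4.58 and 3.55 in control and 1.11 and 0.909 after cordycepin, but no array detected it, so no fold is given and its call counts among the 28 only by the test.

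The SCAN gene with the largest measured fall was Zscan12, at 1257 and 879 in control and 143 and 135 after cordycepin, 7.57-fold lower. Zkscan14 read 219 and 161 in control and 26.7 and 26.4 after cordycepin, 7.07-fold lower and just above the detection limit. Both pairs of cordycepin arrays agreed far more closely than the control pairs did. Zbtb9 (764 and 561, then 93.3 and 93.6) had a log2 ratio of −2.81. Zbtb8a (401 and 299, then 51.1 and 50.0) fell 6.85-fold, and Zbtb6 (948 and 658, then 142 and 144) fell 5.52-fold. Groups that did not overlap were again a condition for naming these 5 genes, so their separation is not a separate result.

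Among members with a described role, Zbtb2, which in human cells represses genes of the p53 pathway, read 452 and 324 in control and 68.9 and 83.6 after cordycepin, 5.04-fold lower. Zbtb48, the telomere-binding factor TZAP, went from 444 and 352 to 83.3 and 85.5, 4.69-fold lower. Zbtb40 went from 693 and 536 to 146 and 155, 4.05-fold lower. In each of these genes both cordycepin arrays lay below both control arrays, as on 35.5% of all genes tested.

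Zbtb7a (LRF), which silences fetal globin genes in red cell precursors, read 612 and 385 in control and 220.0 and 176 after cordycepin. The 2.47-fold fall was one of the smallest that passed (adjusted p = 0.012), and it was no longer called when either cordycepin array was left out, after quantile normalization, or with no filter on low values. Zkscan1, known as the host gene of an abundant circular RNA that its probe here was not matched to, went from 408 and 289 to 100.0 and 94.5, 3.53-fold lower, and lost its call without the second cordycepin array. Zscan21, which promotes the growth of cerebellar granule cell precursors in mouse, went from 176 and 95.9 to 42.2 and 42.7, 3.06-fold lower, and was not called when either cordycepin array was left out or with no filter. In these 3 genes too, every control value was above every cordycepin value, as on 35.5% of all genes tested.

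The other genes called lower were Zbtb26, Zbtb22, Zbtb42, Zkscan5 and Zbtb34, each detected on all arrays and each between 3.58-fold and 4.05-fold lower. Zbtb42, a gene of the neuromuscular junction in mouse, read 228 and 156 in control and 45.6 and 50.9 after cordycepin. Zbtb22 read 609 and 353, then 124 and 110.0. In Zbtb42 and Zbtb22 both cordycepin arrays lay below both control arrays, as on 35.5% of all genes tested. Zbtb22 and Zbtb34 were no longer called with no filter.

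**Figure D2:**
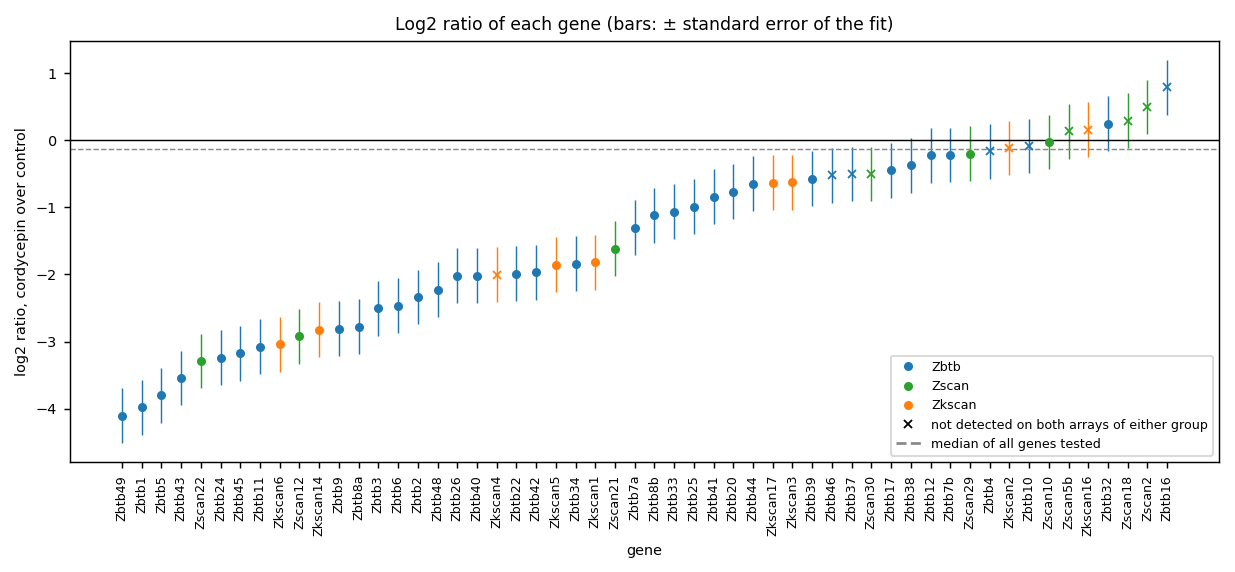
Log2 ratio (cordycepin over control) of the 54 tested genes in order, with the standard error of the fit (0.41 for each) as bars and the families in colour. Crosses mark genes not detected on both arrays of either group; apart from Zkscan4 they lie between −0.52 and 0.79, while the circles reach −4.11.

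Of the detected members, 15 did not pass the test. For 10 of them both cordycepin arrays lay below both control arrays, a pattern seen on 35.5% of all genes tested. The median log2 intensity over all fitted probes was also lower on the cordycepin arrays (4.68 and 4.67) than on the control arrays (5.24 and 4.78). Zbtb33 (Kaiso), which binds methylated DNA and the catenin p120, read 521 and 318 in control and 192 and 196 after cordycepin (log2 ratio −1.07, adjusted p = 0.059). The next in order was Zbtb25, at 222 and 154 in control and 95.6 and 90.9 after cordycepin (−0.99, adjusted p = 0.089). Both were called on centred arrays, in a fit with an intensity trend and over detected probes only. Zbtb41 (1085 and 750, then 537 and 474) and Zbtb20 were also called on centred arrays, though all 4 ratios were nearer 0 there. Zbtb20, a repressor of alpha-fetoprotein in liver, was among the brightest members, with 1452 and 1104 in control and 754 and 734 after cordycepin, a log2 ratio of −0.77.

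Zbtb17 (Miz-1), through which Myc represses its targets, read 859 and 584 in control and 582 and 461 after cordycepin. The groups were separated by less than the gap between the control arrays (log2 ratio −0.45, adjusted p = 0.68). Zkscan3, a repressor of autophagy and lysosome genes in human cells, was the brightest member and also the one whose duplicates differed most, at 2864 and 1161 in control and 1329 and 1045 after cordycepin. These groups overlapped, and without the first control array the log2 ratio moved from −0.63 to 0.02. Zbtb44, Zkscan17 and Zbtb39 had log2 ratios of −0.65, −0.63 and −0.57 with separated groups.

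The 5 detected members with ratios nearest 0 were Zscan10, Zscan29, Zbtb7b, Zbtb12 and Zbtb32. Zscan10, a factor of embryonic stem cells, read 81.3 and 60.4 in control and 70.0 and 67.3 after cordycepin, so that both cordycepin values lay between the control values. Zbtb7b (ThPOK), which commits thymocytes to the CD4 lineage, read 35.5 and 32.0 in control and 27.8 and 30.0 after cordycepin. Zbtb12 read 129 and 73.7, then 82.2 and 84.5. Overlap was also seen for Zscan29 (69.8 and 39.1, then 37.8 and 54.5) and for Zbtb32, a lymphocyte repressor of Gata3 activity that was near the detection limit (25.2 and 17.8, then 28.9 and 21.8). On centred arrays 4 of these ratios turned positive, that of Zbtb32 being 0.25 already, and with an error of 0.41 none of the 5 is given a direction. Zbtb38, a methyl-CpG binding relative of Kaiso, read 41.2 and 26.6 in control and 25.6 and 25.5 after cordycepin, at the edge of detection.

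No array detected 12 members, namely Zbtb4, Zbtb10, Zbtb16, Zbtb37, Zbtb46, Zkscan2, Zkscan4, Zkscan16, Zscan2, Zscan18, Zscan20 and Zscan30, and Zscan5b was detected on a single cordycepin array. Zbtb16 (PLZF), which maintains spermatogonial stem cells, read 1.14 and 1.78 in control and 3.33 and 1.82 after cordycepin. Zbtb46, which marks classical dendritic cells, read 10.3 and 7.10, then 5.56 and 6.36. Zbtb4, the remaining Kaiso relative, stayed between 4.44 and 6.87 on all arrays, and Zbtb10, which lowers Sp factor expression in human cells, between 14.4 and 16. For these genes only an upper limit on the level was measured. The Zscan4 genes of the 2-cell embryo were not analysed here.

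The log2 ratio was set against 3 measures over the 42 detected members, which share the same 4 arrays. Spearman's rho of the log2 ratio with the mean control intensity was −0.18, with gene length 0.01, and with promoter GC content −0.01 (37 genes with a promoter sequence). The genes called lower had control means of 40.6 to 1068 and the detected genes not called had means of 21.5 to 2013, so both classes covered dim and bright probes. Gene length ranged from 2.37 to 69.1 kb in the 27 lower genes (median 17.2 kb) and from 2.31 to 759 kb in the 15 others (median 16030 bases), where Zbtb20 is the longest. By family, 20 of 36 Zbtb, 3 of 9 Zscan and 5 of 9 Zkscan genes tested were lower, where 14.7% of all genes tested were lower. Among detected genes the shares lower were 64.5% of Zbtb, 60.0% of Zscan and 66.7% of Zkscan genes, beside 22.1% of all detected genes. The Zscan family held 4 tested genes that were not detected on both arrays of either group, and the difference between families was not tested.

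Positions of all 55 members were taken from RefSeq (GRCm38.p6, matched by Entrez gene number), and 7 pairs of members lay within 50 kb of each other. Both genes were lower in 5 of these pairs, where 28 of the 54 tested members were lower and 48 had a ratio below 0. Zbtb6 (chr2:37425500-37430919) and Zbtb26 (chr2:37432168-37443172) have log2 ratios of −2.47 and −2.02. Zkscan1 (chr5:138085050-138107822) and Zscan21 (chr5:138116899-138134265) have −1.82 and −1.61. Zkscan14 and Zkscan5 lie only 394 bases apart (chr5:145194946-145204164 and chr5:145204559-145221752) and have −2.82 and −1.85. The ratios within these 3 pairs differed by 0.20 to 0.97. Zbtb34 with Zbtb43 (−1.84 and −3.54) and Zbtb8a with Zbtb8b (−2.78 and −1.12) differed more.

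In the remaining pairs 1 gene was called and the other was not. Zscan12 (chr13:21362820-21372302) fell 7.57-fold while Zkscan3 (chr13:21387004-21402755), 14.7 kb away, had overlapping groups. Zbtb25 (chr12:76348900-76370214) and Zbtb1 (chr12:76370051-76396955) overlap by 164 bases at their starts on opposite strands, and their log2 ratios of −0.99 and −3.98 stood 2.99 apart on the log2 scale, with Zbtb1 below detection after cordycepin. Differences within pairs were not tested.

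**Figure D3:**
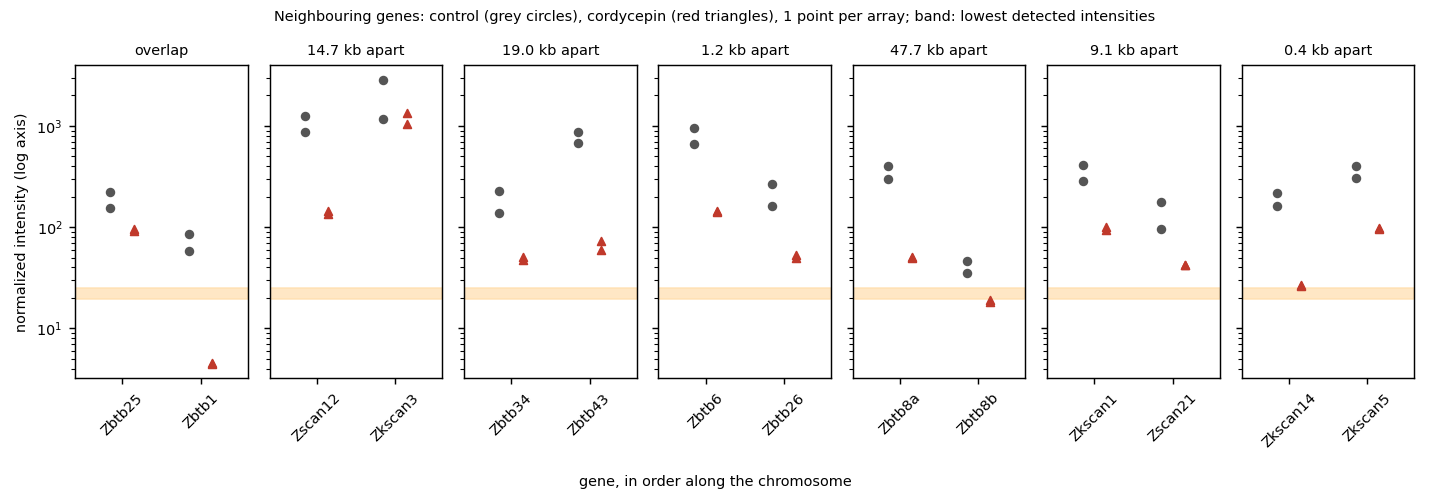
Normalized intensity (log axis) of the 7 pairs of member genes within 50 kb, 1 point per array, grey circles for control and red triangles for cordycepin. Both genes move down in the 5 pairs where both were called, whereas Zkscan3 and Zbtb25 stay nearer to their control points than Zscan12 and Zbtb1; the band spans the lowest detected intensities of 19.5 to 25.2.

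Promoter sequences (250 bases before to 50 after a start, RefSeq, GRCm38.p6, the first entry for each gene) were held for 45 members and for 15067 genes of the array. The members' median GC content was 60.0% and that of all genes 58.0%, with a median of 22 and 16 CpG steps. A search was made for 12 short motifs on both strands. The ETS-family word CCGGAAG was found in 16 of 45 member promoters, 35.6%, against 13.0% of all 15067 and 20.0% of the 2165 promoters whose genes were called lower. It was present in 12 of the 24 lower members with a sequence and in 3 of the 14 detected members that were not called, and the remaining match, Zbtb37, was not detected. The TATA word TATAAA was found in 1 member promoter (2.22% against 10.9%), that of Zbtb43. Shares for the Sp word GGGCGG were 57.8% and 52.0%, for the NF-Y word CCAAT 37.8% and 38.2%, for the E box CACGTG 11.1% and 8.74%, for the NRF1 word GCATGCGC 11.1% and 4.10%, and for the CREB word TGACGTCA 6.67% and 2.56%. The AP-1 word TGAGTCA stood at 4.44% and 4.48%, the word TCCTGC bound by Kaiso at 20.0% and 26.6%, the YY1 word AAGATGGCG at 2.22% and 2.20%, and the CpG island palindrome CTCGCGAGA at 2.22% and 1.13%. The ZNF143 word ACTACAATT was in no member promoter and in 0.591% of all. These words were chosen with the members known, the matches are descriptions of letters, and no test of them was made.

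The promoters of 6 genes are shown so that the pattern can be read next to the values: 3 of strongly lower genes that carry the ETS-family word, 1 of a gene with the word that was not called, and the pair that starts head to head. Capitals mark CCGGAAG or its reverse complement, and each run reads 5′ to 3′ on the gene's own strand.
Zbtb43 (chr2:33468483-33468782, minus strand, log2 ratio −3.54): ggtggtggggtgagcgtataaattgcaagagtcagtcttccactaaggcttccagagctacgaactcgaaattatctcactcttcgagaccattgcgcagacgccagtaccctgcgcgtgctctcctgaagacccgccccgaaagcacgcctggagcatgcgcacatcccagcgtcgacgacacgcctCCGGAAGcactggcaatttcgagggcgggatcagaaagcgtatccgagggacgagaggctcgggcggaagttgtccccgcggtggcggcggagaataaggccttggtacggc
Zbtb24 (chr10:41450108-41450407, plus strand, log2 ratio −3.24): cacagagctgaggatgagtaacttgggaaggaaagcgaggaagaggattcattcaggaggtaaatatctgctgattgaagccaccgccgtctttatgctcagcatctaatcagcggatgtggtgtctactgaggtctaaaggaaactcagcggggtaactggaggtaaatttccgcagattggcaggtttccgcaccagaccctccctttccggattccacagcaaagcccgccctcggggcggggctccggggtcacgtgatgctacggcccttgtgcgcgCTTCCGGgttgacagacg
Zbtb11 (chr16:55973554-55973853, plus strand, log2 ratio −3.08): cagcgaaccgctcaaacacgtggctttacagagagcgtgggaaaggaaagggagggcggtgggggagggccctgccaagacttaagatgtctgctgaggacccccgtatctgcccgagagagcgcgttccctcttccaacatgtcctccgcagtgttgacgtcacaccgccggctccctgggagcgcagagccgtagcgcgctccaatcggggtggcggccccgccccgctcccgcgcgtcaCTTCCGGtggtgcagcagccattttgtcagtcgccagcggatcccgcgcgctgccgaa
Zbtb41 (chr1:139422133-139422432, plus strand, log2 ratio −0.84, not called): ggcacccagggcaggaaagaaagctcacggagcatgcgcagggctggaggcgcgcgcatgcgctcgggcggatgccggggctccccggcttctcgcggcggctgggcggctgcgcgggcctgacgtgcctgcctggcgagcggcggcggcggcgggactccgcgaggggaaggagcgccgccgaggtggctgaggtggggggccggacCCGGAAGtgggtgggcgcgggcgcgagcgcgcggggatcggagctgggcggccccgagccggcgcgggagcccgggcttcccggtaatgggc
Zbtb1 (chr12:76370270-76370569, plus strand, log2 ratio −3.98): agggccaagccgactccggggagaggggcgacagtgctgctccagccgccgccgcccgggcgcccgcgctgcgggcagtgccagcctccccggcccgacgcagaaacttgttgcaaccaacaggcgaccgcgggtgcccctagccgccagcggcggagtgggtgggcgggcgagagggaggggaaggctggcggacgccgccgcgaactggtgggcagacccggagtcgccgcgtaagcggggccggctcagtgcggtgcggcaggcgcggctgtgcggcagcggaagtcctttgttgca
Zbtb25 (chr12:76369511-76369810, minus strand, log2 ratio −0.99, not called): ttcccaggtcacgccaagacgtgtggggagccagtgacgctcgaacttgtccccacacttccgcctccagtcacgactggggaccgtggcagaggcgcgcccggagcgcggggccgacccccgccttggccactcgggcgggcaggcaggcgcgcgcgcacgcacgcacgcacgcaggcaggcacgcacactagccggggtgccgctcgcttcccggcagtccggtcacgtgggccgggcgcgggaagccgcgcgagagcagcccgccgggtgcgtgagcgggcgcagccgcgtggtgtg
The 4 promoters with the word hold it once each, and their genes range from −3.54 to −0.84. Neither sequence shown for the head-to-head pair holds it. These sequences leave out the 164 bases where the genes overlap, so that stretch was not searched. Both are rich in G and C (75.0% for Zbtb1 and 75.3% for Zbtb25, with 39 and 44 CpG steps), although the genes' ratios stand 2.99 apart.

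On the array, 7 genes carry older symbols whose current RefSeq symbols would make them members. Of these 7, 5 were lower, where 14.7% of all genes tested were lower. Zbtb14 (listed as Zfp161), which represses Myc, read 484 and 341 in control and 62.2 and 54.5 after cordycepin, 6.97-fold lower. Zscan26 (Zfp187) went from 705 and 487 to 150.0 and 148, 3.93-fold lower. Zbtb18 (Zfp238), needed for the growth of the cerebral cortex, went from 49.2 and 29.3 to 8.89 and 10.0, which the cordycepin arrays did not detect, at least 1.68-fold lower. Zscan25 (Zfp498) and Zkscan7 (Zfp167) were called lower but were detected on no array. Zkscan8 (Zfp192, adjusted p = 0.052) and Zbtb21 (Zfp295, adjusted p = 0.086) were not called. All 7 had both cordycepin values under both control values, as had 35.5% of all genes tested.

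BTB zinc finger genes with names of their own gave 5 of 8 lower and 0 higher, with a median log2 ratio of −1.97. All 8 were detected, and 22.1% of all detected genes were lower. Bcl6, the repressor that germinal centre B cells depend on, read 2145 and 1561 in control and 179 and 173 after cordycepin, a 10.4-fold fall (adjusted p = 1.1e-14). Mynn read 925 and 697, then 170.0 and 165, 4.79-fold lower. Hic1, a tumor suppressor, was detected in control only (40.1 and 25.7, then 2.22 and 0.909) and was at least 1.42-fold lower. Hic2 and Gzf1 were the other lower genes, and Bcl6b, Zfp131 and Patz1 were not called.

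SCAN genes under other names were lower in 7 of 12 cases and higher in none, with a median of −1.39, where 14.7% of all genes tested were lower. The largest fall was that of Zfp213, from 430.4 and 304 to 33.3 and 36.4, 10.4-fold. Scand1, which has a SCAN domain and no zinc fingers, read 1666 and 1247 in control and 1684 and 1760 after cordycepin, both above the control values, and was not called. Zfp397 was called at a log2 ratio of −2.59, but its cordycepin arrays stood apart (3.33 and 20.9).

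Transcripts of the proteins through which these factors act were measured alongside. Of 23 genes for corepressors and their partners, all detected, 5 were lower and 0 higher, 21.7% beside the 22.1% of all detected genes, and their median log2 ratio was −0.13. Sin3a (1358 and 1048, then 377 and 372), a scaffold for histone deacetylases, was 3.19-fold lower by the fit, but the second cordycepin array did not detect it in spite of its reading, so an intensity above the lowest detected one is not always a detection. Sin3b was 3.16-fold lower. Hdac4, Mta2 and Bcorl1 were also lower. Among corepressors known to bind BTB or KRAB domains, Ncor1 (log2 ratio −0.45), Bcor (−0.78) and Trim28 (−0.07) were not called. Cul3, the ubiquitin ligase scaffold that other BTB proteins use, read 4906 and 3547, then 3616 and 3659, within the control range.

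Numbered Zfp genes encode zinc finger proteins of many kinds. Of 316 tested genes with a numbered Zfp symbol, 183 were lower and 4 higher, 57.9% beside 51.9% of the BTB and SCAN members, and the median log2 ratio was −1.49 beside −1.21. The genes under older symbols and most of the SCAN genes just described are among these 316. BTB genes without zinc fingers (numbered Klhl, Kctd and Btbd genes) were lower in 22 of 63 cases and higher in 2, 34.9% with a median of −0.80. On centred arrays 19.8% of all genes tested were lower and 19.9% higher. There the numbered Zfp genes gave 198 lower and 20 higher of 316. The BTB genes without zinc fingers gave 25 and 7 of 63, and the corepressor genes 5 and 3 of 23. The SCAN genes under other names gave 6 and 2 of 12, and the BTB zinc finger genes with names of their own 6 and 0 of 8. The differences between these shares were not tested.

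**Figure D4:**
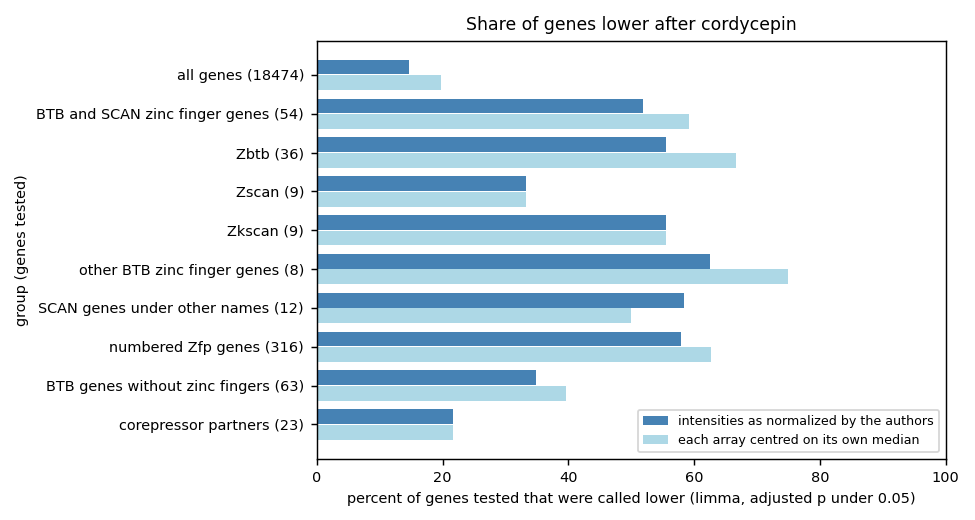
Percent of tested genes called lower after cordycepin (limma, adjusted p under 0.05) in each group, with the number of genes tested in brackets, for intensities as the authors normalized them (dark) and for arrays centred on their medians (light). The BTB and SCAN members stand at 51.9% and 59.3%, all genes at 14.7% and 19.8%, and the numbered Zfp genes at 57.9% and 62.7%.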

How the data were processed

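The 4 one-colour arrays (Mouse OneArray v2.0) were scanned and normalized by the authors, who deposited raw intensities, normalized intensities and a detection p-value for each probe; each normalized intensity was the raw intensity times a constant for its array. The normalization method was not given in the sources used here. Columns with the authors' own log2 ratios, p-values and averages were not used. Log2 normalized intensities of the 24319 probes above 0 on all arrays were fitted with limma 3.58.1 in R 4.3.3 (lmFit and eBayes, no covariate), adjusted by Benjamini-Hochberg over those probes and called at an adjusted p under 0.05. The 237 probes with several symbols and 3633 with none stayed out of counts of genes. The script was tested on simulated data. With 2 arrays per group, their number limits the precision. The members, the gene lists and the motifs were chosen with earlier results of these data known. Genes named were the 15 largest falls among detected, called and separated members, any higher member, the 5 detected members nearest 0 and members with described roles; the rest were named with their call. Values given for a few of the rest, Sox9, the gene lists and the genes under older symbols were chosen after their values were seen. Alternatives were other scalings, filters and tests, and leaving out each array.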

Additional observations from a re-analysis of the deposited data

How the results depend on the processing

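The count of lower members lay within 1.5 times of 28 under every scaling and filter run. The number of lower probes over the whole array moved as well. It was 3152 in the main fit, 4270 on centred arrays and 1798 with no filter on low values. The count of lower members was 0 by the methods' t-test after Benjamini-Hochberg adjustment, by which 26 members were lower at an unadjusted p under 0.05. No member was higher under any alternative except quantile normalization, where 1 was, Zscan10. The median log2 ratio of the members was −0.87 on centred arrays and −0.76 after quantile normalization. Over detected probes, a filter that genes detected in control alone also pass, the median was −1.91. With single arrays left out it lay between −1.53 and −0.95. Genes near 0 changed sign. On centred arrays Zscan10 was at 0.31, Zscan29 at 0.14, Zbtb7b at 0.12, Zbtb12 at 0.11, Zbtb4 at 0.17 and Zbtb10 at 0.25. After quantile normalization Zscan10 was at 0.63, Zscan29 at 0.33, Zbtb7b at 0.15, Zbtb12 at 0.51, Zbtb10 at 0.085 and Zbtb17 at 0.19. With single arrays left out, ratios ran from −0.24 to 0.18 for Zscan10, −0.62 to 0.22 for Zscan29, −0.63 to 0.18 for Zbtb12, −0.48 to 0.15 for Zbtb4, −1.28 to 0.021 for Zkscan3 and −0.0045 to 0.50 for Zbtb32. The cause was not tested. No paired analysis was possible because the labels' numbers do not tie a control array to a cordycepin array. Readings under the detection limit bound falls from one side only.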

Other observations

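Several probes were present for 6 members, and counted by probe 30 of 61 tested probes were lower and 0 higher. The dimmer probes of Zkscan6 and Zscan12 gave log2 ratios of −2.05 and −1.56 where the brighter ones gave −3.04 and −2.92, all called. The second probe of Zbtb42 was detected on no array and gave −0.10 beside −1.97. All 3 probes of Zbtb44 lay between −1.05 and −0.65 and none was called.

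Among the BTB genes without zinc fingers, Klhl21 (1852 and 1301 in control, 170.0 and 155 after cordycepin), an adaptor of Cul3 in cell division, was 9.55-fold lower. Klhl9 was 4.16-fold lower (923 and 649, then 184 and 187). Kctd7 was called higher, from 42.4 and 19.5 to 71.1 and 54.5, with control arrays that differed by more than the cordycepin arrays. The other higher gene, Klhl33, was detected on no array.

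Of the 2-cell embryo genes, Zfp352 was called higher on a single array: it read 8.01 and 403 in control and 513 and 483 after cordycepin, and without the first control array the log2 ratio moved from 3.13 to 0.30 (adjusted p = 0.24). Tdpoz4 was detected on no array.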
